A study of Mus musculus with 24 samples.

Results

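The kinesin genes of the mouse were followed in a study of the dentate gyrus of running and sedentary mice. Members were taken by symbol, as every Kif gene with a number and at most 1 letter from a to c. Kifc genes were taken with a number from 1 to 5 and no further letter. The rule found 40 genes of the 23306 in the deposited expression table, whose unit is TPM (a level that is corrected for transcript length and for library size). By known role they were placed in 5 classes: 13 mitotic kinesins, 15 transport kinesins, 6 kinesins of cilia and centrioles, 5 of microtubule dynamics and signalling, and Kif12, which was kept apart.

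All mice were female C57BL6 animals with a tamoxifen-inducible Cre under the Nestin promoter (Nestin-CreERT2) and the RiboTag allele, in which Cre switches the ribosomal protein Rpl22 to a form with an HA tag. At 9 to 11 weeks of age every mouse, sedentary ones included, received tamoxifen at 160 mg/kg daily for 5 days. Running mice were housed alone with a free wheel, and sedentary mice with a wheel that was glued, for 11, 18 or 27 days. RNA was sequenced from HA-tagged ribosomes precipitated from the dentate gyrus (IP), which carry RNA of cells that expressed Nestin at the time of tamoxifen and of their progeny, and from the whole dentate gyrus (input). The groups were IP of running and of sedentary mice and input of running and of sedentary mice, each at 3 treatment times, which gives 12 groups of 2 libraries and 24 libraries in all. The labels name the precipitated cells as immature neurons; they do not say how many mice made up a library or that the libraries of a group came from different mice, so p-values measure the spread between these libraries, which may be technical.

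Kinesins are motor proteins that use ATP to move along microtubules or to take their ends apart. Mitotic kinesins build the spindle, align chromosomes on it and complete cell division, and they are transcribed mainly in dividing cells. Transport kinesins carry vesicles, organelles and RNA along the axons and dendrites of neurons. In the dentate gyrus new granule neurons arise throughout life from dividing progenitors, so the same lineage passes from cells that divide to cells that grow axons.

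RefSeq promoter windows, from 250 bases before to 50 bases after the annotated start on build GRCm38.p6, were found for 32 of the 40 members, in 36 windows; there was none for Kif13b, Kif19a, Kif20a, Kif21b, Kif5a, Kif5b, Kifc2 and Kifc3. Windows were searched on both strands for CCAAT, the box bound by NF-Y, and for TTTGAA, which is known from many late cell cycle genes as the cell cycle genes homology region. Matches of the 2 motifs did not overlap in the windows printed. Capitals mark either motif on either strand, so that CCAAT appears as ATTGG and TTTGAA as TTCAAA on the opposite one. Shown are the 3 mitotic kinesins of lowest p for day 27 against day 11 in IP, Kif11, Kif23 and Kif15, and for contrast the transport kinesin Kif5c. The Kif11 window is chr19:37376132-37376431 on the plus strand, that of Kif23 chr9:61946750-61947049 on the minus strand, that of Kif15 chr9:122950831-122951130 on the plus strand and that of Kif5c chr2:49619036-49619335 on the plus strand.
Kif11: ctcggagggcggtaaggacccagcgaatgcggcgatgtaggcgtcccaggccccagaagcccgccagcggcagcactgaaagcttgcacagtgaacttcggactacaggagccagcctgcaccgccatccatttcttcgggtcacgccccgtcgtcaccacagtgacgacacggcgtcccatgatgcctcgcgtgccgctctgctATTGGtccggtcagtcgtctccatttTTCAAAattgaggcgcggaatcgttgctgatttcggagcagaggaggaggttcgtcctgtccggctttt
Kif23: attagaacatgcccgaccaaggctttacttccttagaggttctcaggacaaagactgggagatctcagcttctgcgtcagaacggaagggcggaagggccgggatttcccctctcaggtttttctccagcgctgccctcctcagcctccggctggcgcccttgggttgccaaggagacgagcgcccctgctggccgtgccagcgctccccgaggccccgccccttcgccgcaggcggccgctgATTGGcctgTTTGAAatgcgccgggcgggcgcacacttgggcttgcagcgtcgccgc
Kif15: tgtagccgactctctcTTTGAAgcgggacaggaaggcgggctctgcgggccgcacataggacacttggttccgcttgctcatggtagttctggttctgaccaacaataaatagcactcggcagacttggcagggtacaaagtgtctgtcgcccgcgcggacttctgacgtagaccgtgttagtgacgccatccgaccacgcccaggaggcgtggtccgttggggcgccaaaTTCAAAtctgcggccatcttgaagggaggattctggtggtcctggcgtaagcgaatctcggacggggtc
Kif5c: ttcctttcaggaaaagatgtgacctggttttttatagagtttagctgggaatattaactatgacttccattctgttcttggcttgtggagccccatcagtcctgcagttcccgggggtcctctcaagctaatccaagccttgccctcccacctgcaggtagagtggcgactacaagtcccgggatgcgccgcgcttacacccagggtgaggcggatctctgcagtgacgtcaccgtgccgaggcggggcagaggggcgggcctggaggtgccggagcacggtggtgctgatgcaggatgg
The Kif11 window held both motifs on the opposite strand, with their first bases at positions -45 and -19 from the start, and the Kif23 window held CCAAT at -7 on the opposite strand and TTTGAA at 3. The Kif15 window held TTTGAA at -234 and, on the opposite strand, at -19, but no CCAAT; the Kif5c window held neither. Shares were counted over windows, since Kif1a, Kif1b, Kif2a and Kif9 have more than 1 each, which overlap in all but Kif1a. TTTGAA was present in 10 of the 12 windows of mitotic kinesins (83.3%), in 1 of the 12 windows of transport kinesins (8.33%), which belongs to Kif1a, and in 17.9% of all 32851 windows. CCAAT was present in 8 of the 12 mitotic windows (66.7%), in 4 of the 12 transport windows (33.3%), both of Kif1b among them, and in 37.4% of all windows. Both motifs occurred in 7 mitotic windows (58.3%), 0 transport windows and 6.95% of all windows. These matches describe the letters of the windows, and a window without a match says only that these letters are not in it.

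Several features of the libraries bear on what follows. IP libraries had higher levels than input of markers of dividing cells in 7 of 8 genes and of progenitors and immature neurons in 8 of 8. They had lower levels in 8 of 8 interneuron and 8 of 8 microglia markers. Of all genes tested 41.4% were called higher in IP and 28.5% lower. Of 8 astrocyte markers 3 were higher in IP, Slc1a3 the most (1.45), and 3 were lower. The summed progenitor and immature neuron markers ran from 780 to 2135 TPM in IP and from 304 to 501 TPM in input. Summed oligodendrocyte markers ran from 900 to 1385 TPM in IP and from 485 to 772 TPM in input. Those of oligodendrocyte precursors went the other way, from 39.7 to 61.6 TPM in IP and from 81.3 to 116 TPM in input. Endothelial and mural markers summed to 46.2 to 82.0 TPM in IP and 65.7 to 113 TPM in input. Summed dividing cell markers overlapped, from 598 to 1289 TPM in IP and from 246 to 3501 TPM in input. Summed astrocyte markers averaged 3331 ± 640 TPM in IP and 2553 ± 292 TPM in input. Mature granule neuron markers summed to 1705 ± 222 TPM in IP and 2922 ± 393 TPM in input (SD, n = 12 each). Input libraries of day 18 stood apart: 1102 olfactory receptor genes, which the dentate gyrus is not known for, averaged 4.67 to 9.78 TPM per gene there, against 0.518 to 3.66 TPM in the other input libraries and 0.565 to 2.05 TPM in the IP. In the IP library of running mice labelled a at day 11, the small RNA Rpph1 took 17.4% of the TPM, against 4.58% to 9.16% in the other IP libraries. Ependymal and choroid plexus markers reached a sum of 132 TPM for IP, and 584 TPM for input, in running mice labelled d at day 18; some of these markers were listed at 0 in some libraries (Tmem212, Dynlrb2 and Folr1 in IP, and Tmem212, Ccdc153 and Dynlrb2 in input). Differences were tested with limma on log2(TPM + 1), a scale that understates changes of genes near or below 1 TPM, among genes with a mean of at least 1 TPM, and were called at an adjusted p under 0.05. Kif12 averaged 0.51 TPM in IP and 0.381 TPM in input, was listed at 0 in some libraries of each, and did not enter any test.

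The first question was which kinesins were carried by tagged ribosomes more than their level in the whole tissue. Of the 39 members tested, 28 were higher in IP than in input, where 41.4% of all 19507 genes were higher, and 3 were lower, where 28.5% of all genes were lower. The mitotic class stood highest: 12 of 13 members were higher in IP and the median log2 difference was 1.42, against 0.12 over all genes tested and 0.16 over the transport class. Transport kinesins were divided, with 8 of 15 higher and 2 lower. Cilia kinesins (5 of 6 higher, median 0.36) and kinesins of dynamics and signalling (3 of 5 higher, median 0.58) lay between. Another scaling of the libraries, by the median of ratios, lowered the median over all genes by 0.24 on the log2 scale. Of all 19507 genes, 5430 were then higher and 8026 lower, and the share of higher among called genes was 40.4% in place of 59.3%. The mitotic counts stayed at 12 higher and 1 lower, while transport kinesins became 5 higher and 6 lower. Of the cilia kinesins only Kif7 and Kif24 were then called higher. Of dynamics kinesins Kif21b, Kif26b and Kif21a were called higher and Kif2a lower.

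**Figure D1:**
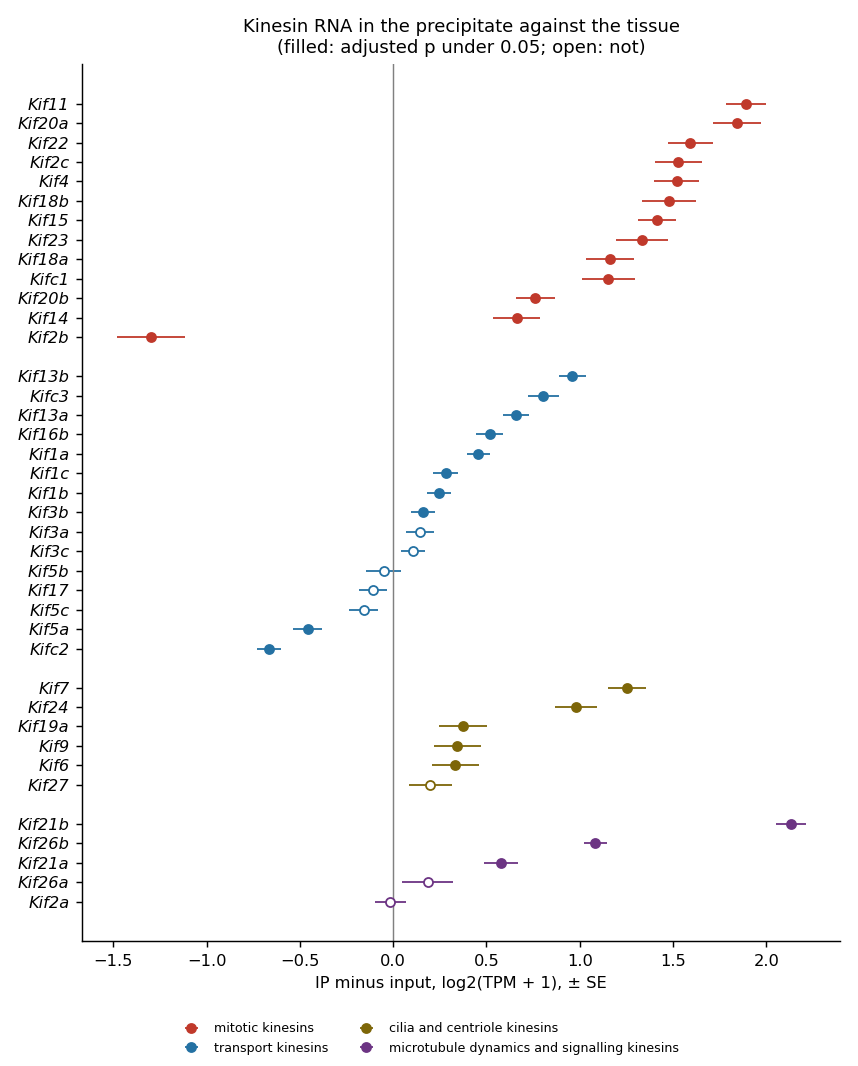
Log2 difference of log2(TPM + 1) between IP and input for the 39 kinesins tested, 1 point per gene with its standard error, grouped by class; the legend gives which points passed an adjusted p under 0.05. Mitotic kinesins lie between 0.66 and 1.89 except Kif2b at -1.30, while transport kinesins lie between -0.67 and 0.96.

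Kif11, the motor that slides spindle microtubules apart and separates the poles, had 8.84, 15.1 and 25.9 TPM (lowest, median and highest) in the 12 IP libraries, against 1.75, 3.12 and 6.48 TPM in the 12 input libraries. Every IP library lay above every input library. The log2 difference was 1.89 ± 0.11 (SE; limma, adjusted p = 1.23e-11). In bulk libraries of this kind, fewer cells of a type and less RNA per cell cannot be told apart. Kif15, which shares the work of Kif11 in the spindle, had 3.89, 8.43 and 12.8 TPM in IP, against 1.45, 2.21 and 3.73 TPM in input. Again the groups did not overlap, and the difference was 1.42 ± 0.10 (adjusted p = 3.21e-10, limma).

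Motors of the spindle midzone and of cytokinesis had the same direction. Kif20a, which brings Aurora B to the midzone, had 7.51, 13.01 and 19.8 TPM in IP, against 1.68, 3.28 and 4.37 TPM in input, with no overlap and a log2 difference of 1.84 ± 0.13 (limma, adjusted p = 1.82e-10). Its exons overlap those of Cdc23 on the opposite strand over 1271 of 4338 bases. Kif23, the motor subunit of centralspindlin, had 4.54, 8.10 and 13.8 TPM in IP, against 1.01, 2.24 and 5.77 TPM in input. The ranges of Kif23 overlapped, and the difference was 1.33 ± 0.14 (limma, adjusted p = 5.34e-08). Kif14, a cytokinesis motor, stood lower in both fractions, at 1.6, 2.78 and 4.0 TPM in IP and 0.43, 1.15 and 3.68 TPM in input, with a difference of 0.66. Kif20b, which acts at the midbody, differed by 0.76.

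Among motors that act on chromosomes, Kif22, a chromokinesin that pushes chromosome arms towards the spindle equator, had 6.2, 11.4 and 16.3 TPM in IP, against 1.86, 2.43 and 5.98 TPM in input. There was no overlap, and the log2 difference was 1.59 ± 0.12 (limma, adjusted p = 7.3e-10). Kif4, the other chromokinesin, was 1.52 higher in IP, Kif2c, which takes microtubule ends apart at kinetochores, 1.53 higher, and Kif18a and Kif18b, which limit microtubule length, 1.16 and 1.48 higher. Kifc1, a motor that moves to minus ends and focuses spindle poles, was 1.15 higher, but it has a near-identical copy in the table, Kifc5b, and the division of reads between them is uncertain. The exception of the class was Kif2b, a relative of Kif2c. Kif2b had 0 to 1.58 TPM in IP, where it was listed at 0 in 2 libraries, against 0.25, 2.41 and 10.9 TPM in input, and differed by -1.30 ± 0.18 (limma, adjusted p = 3.6e-06). Its input level was 7.55 ± 2.71 TPM at day 18, in the libraries with high olfactory receptor levels, against 1.12 ± 1.25 and 1.96 ± 0.666 TPM on days 11 and 27 (SD, n = 4 each); on days 11 and 27 taken alone its difference of -0.58 and -0.75 did not pass the test. The part of the olfactory receptor signal in this result was not tested.

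**Figure D2:**
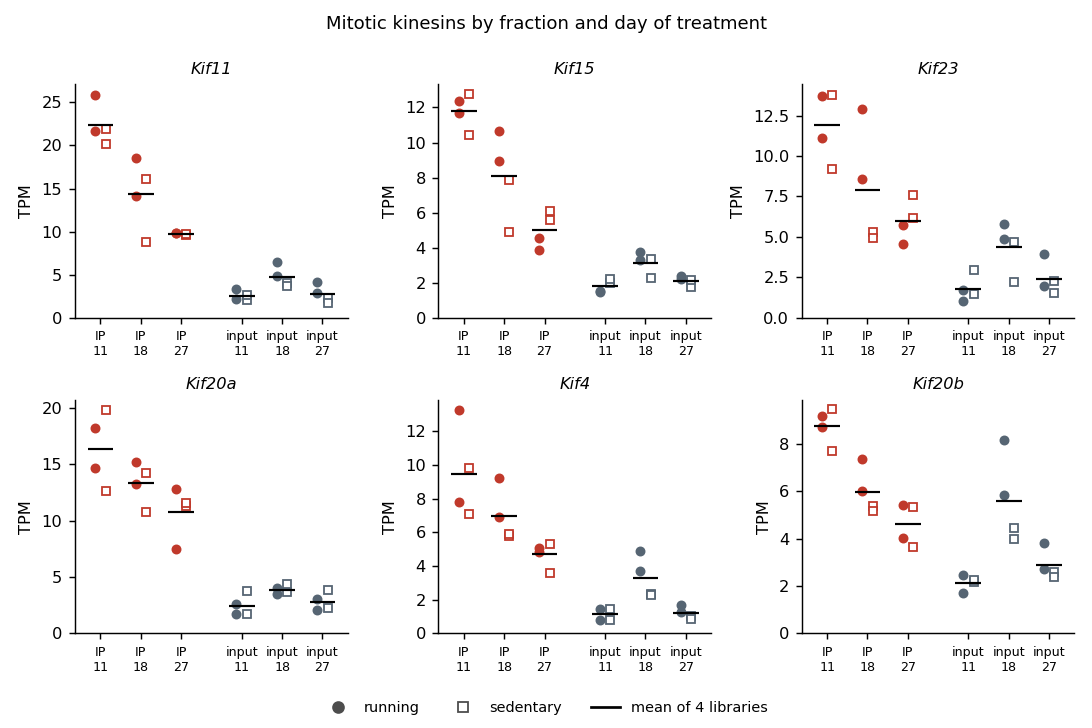
TPM of 6 mitotic kinesins in each library by day (11, 18 and 27 days), for IP and input; filled circles are running, open squares sedentary, and bars the mean of 4 libraries. Kif11 lies between 8.84 and 25.9 TPM in IP and between 1.75 and 6.48 TPM in input, and its IP mean is lower at each later day.

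The transport class held the most abundant kinesins of both fractions on the TPM scale. In IP the order of mean levels began with Kif5c (441 ± 78.2 TPM), Kif5a (387 ± 37.8 TPM), Kif1a (384 ± 52.9 TPM) and Kif1b (356 ± 31.7 TPM; SD, n = 12 each), and neighbours in that order lay within 1 SD. In input it began with Kif5a (548 ± 153 TPM) and Kif5c (496 ± 100 TPM), followed by Kif1b (302 ± 43.4 TPM) and Kif1a (280 ± 41.3 TPM). The summed transport class came to 1955, 2261 and 2733 TPM in IP and 1709, 2381 and 3194 TPM in input, which overlap over most of their range. The summed mitotic class came to 68.4, 96.4 and 149 TPM in IP and 18.5, 30.9 and 68.8 TPM in input. Mitotic kinesins thus made up 3.36% ± 0.944 of kinesin TPM in IP and 1.34% ± 0.897 in input (SD, n = 12 each).

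Kif1a, which carries synaptic vesicle precursors along axons, had 291, 379 and 466 TPM in IP, against 221, 281 and 371 TPM in input. The ranges overlapped, and the log2 difference was 0.46 ± 0.06 (limma, adjusted p = 2.25e-06), or 0.18 under the other scaling. Kif5a, the neuronal heavy chain of conventional kinesin, went the other way, with 329, 383 and 454 TPM in IP, against 356, 528 and 889 TPM in input, and a difference of -0.46 ± 0.08 (limma, adjusted p = 3.34e-05), which was -0.74 under the other scaling and -0.72 without the day 18 libraries. Kif5c, its neuronal paralog, had 367, 413 and 608 TPM in IP, against 345, 508 and 679 TPM in input. Its difference of -0.16 ± 0.08 did not pass (limma, adjusted p = 0.0756), but it was called lower under the other scaling, at -0.44, and without the day 18 libraries, at -0.38. Kif5b, the heavy chain that all cells use, averaged 183 TPM in IP and 198 TPM in input and differed by -0.05.

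The largest transport differences were in less abundant members. Kif13b, which carries the scaffold Dlg1, had 19.7, 29.5 and 34.9 TPM in IP, against 12.6, 14.2 and 15.7 TPM in input, a difference of 0.96 ± 0.07 with no overlap (limma, adjusted p = 6.83e-10). Its close relative Kif13a, a motor of the mannose 6-phosphate receptor and of recycling endosomes, had 18.8, 25.5 and 27.7 TPM in IP, against 12.9, 14.8 and 17.8 TPM in input, also without overlap (0.66 ± 0.07, adjusted p = 8.29e-08, limma). The minus-end motors Kifc2 and Kifc3 differed from each other in direction. Kifc2, a neuronal motor, had 72.6, 108 and 129 TPM in IP, against 128, 174 and 195 TPM in input; only the top of the IP range reached the input, and the difference was -0.67 ± 0.06 (limma, adjusted p = 1.75e-08). Kifc3 had 18.9, 28.3 and 34.7 TPM in IP, against 12.4, 16.2 and 19.3 TPM in input, with a slight overlap and a difference of 0.81 ± 0.08 (limma, adjusted p = 4.78e-08). Under the other scaling Kif13a differed by 0.39 and Kifc3 by 0.54. Exons of Kifc2 overlap those of Cyhr1 on the opposite strand over 163 of 3932 bases, and those of Kif3c overlap 1110002L01Rik over 2617 of 7406 bases. In the other classes Kif4 overlaps Pdzd11 over 832 of 5514 bases and Kif2a overlaps Dimt1 over 1229 of 6393 bases; since the strand setting of the counting is not given, reads of such pairs cannot be told apart. The kinesin-2 subunits that carry intraflagellar and axonal cargo differed little: Kif3a 0.14 and Kif3c 0.11, both uncalled, and Kif3b 0.16, called but smaller than the shift between scalings. Kif16b, a motor of early endosomes, was 0.52 higher, and Kif1c and Kif1b were called higher by 0.28 and 0.25, about the size of that shift. Kif17, a kinesin-2 motor of dendrites, differed by -0.11 and was not called.

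**Figure D3:**
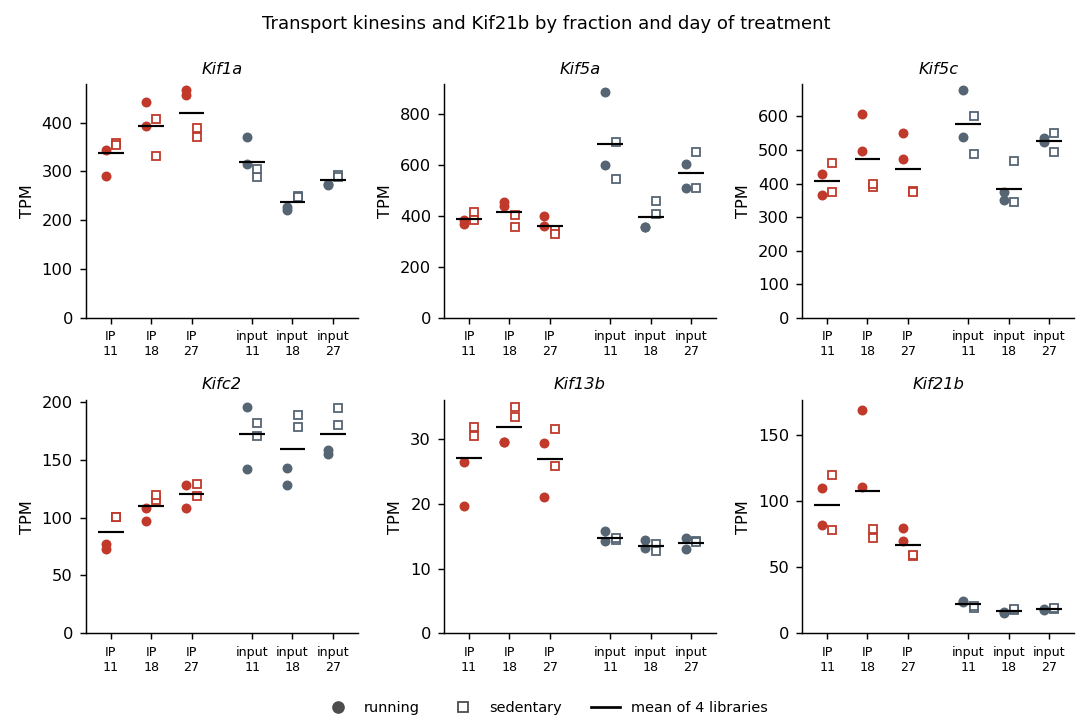
TPM of 5 transport kinesins (Kif1a, Kif5a, Kif5c, Kifc2, Kif13b) and of Kif21b in each library by day, for IP and input; filled circles are running, open squares sedentary, and bars the mean of 4 libraries. Kif13b and Kif21b lie higher in every IP library than in any input library, and input levels of Kif5a and Kif5c are lowest at day 18.

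The highest difference of any member was that of Kif21b, a kinesin of neurons that restrains microtubule growth. Kif21b had 58.4, 79.3 and 169 TPM in IP, against 15.4, 18.4 and 24.3 TPM in input, so that the lowest IP library lay well above the highest input library. The log2 difference was 2.13 ± 0.08 (limma, adjusted p = 3.21e-14), and it was called on each day, at 2.07, 2.52 and 1.80. Its paralog Kif21a was more abundant but differed less, with 212, 257 and 319 TPM in IP, against 105, 180 and 300 TPM in input, and 0.58 ± 0.09 (limma, adjusted p = 1.4e-05). Kif21a was called higher on day 18 alone (1.21), and not on day 11 (0.31) or day 27 (0.21); without the day 18 libraries its call was lost (0.26, adjusted p = 0.0635, limma), and under the other scaling it differed by 0.30. Kif26b, an atypical kinesin of Wnt5a signalling, had 42.4, 65.6 and 94.8 TPM in IP, against 24.4, 31.9 and 33.5 TPM in input, with no overlap and a difference of 1.08 ± 0.06 (limma, adjusted p = 9.9e-12). Kif2a, which takes microtubule ends apart in axon branches, had 107, 134 and 145 TPM in IP and 97.8, 137 and 152 TPM in input, with a difference of -0.01 that was not called; under the other scaling it was -0.29 and called. Kif26a ran from 1.07 to 3.31 TPM in IP and from 0.84 to 3.36 TPM in input and was not called.

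Among kinesins of cilia, Kif7, which acts at the tip of the primary cilium in Hedgehog signalling, had 6.86, 8.53 and 10.5 TPM in IP, against 2.13, 2.90 and 4.24 TPM in input. There was no overlap, and the difference was 1.25 ± 0.10 (limma, adjusted p = 2.01e-09). Kif24, which in human cells holds back cilium assembly at the mother centriole, had 4.57, 6.99 and 9.49 TPM in IP, against 1.64, 2.88 and 5.24 TPM in input, and 0.98 ± 0.11 (limma, adjusted p = 2.12e-07). Kif7 and Kif24 were called on each of the 3 days. Kif9, a kinesin of motile cilia, had 4.24, 5.27 and 7.1 TPM in IP, against 1.5, 3.82 and 9.43 TPM in input. Its difference of 0.34 ± 0.13 was called (limma, adjusted p = 0.0213) but not under the other scaling, at 0.12, nor without both IP libraries labelled a at day 11, at 0.32; without the day 18 libraries it was 0.63. Kif27, the paralog of Kif7, had 4.39, 6.75 and 8.68 TPM in IP and 2.99, 5.44 and 7.69 TPM in input and was not called (0.20, adjusted p = 0.125, limma; -0.0431 under the other scaling). Kif6 and Kif19a, both of motile cilia, were called higher by 0.33 and 0.37, but neither was called under the other scaling.

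Within single days the mitotic class stayed high in IP. At day 11, 12 mitotic kinesins were higher and 0 lower (median 2.07), with 29.2% of all genes higher and 12.1% lower; transport kinesins were 4 higher and 4 lower (median -0.12). At day 18, 9 mitotic kinesins were higher and 1 lower (median 0.91), with 33% of all genes higher and 31% lower; Kif14, Kif18b and Kif20b were not called, and 11 transport kinesins were higher and 1, Kifc2, lower (median 0.51). At day 27, 12 mitotic kinesins were higher and 0 lower (median 1.06), with 34.6% of all genes higher and 14.3% lower; 5 transport kinesins were higher and 2, Kif5a and Kifc2, lower (median 0.19). Kif11 differed by 2.74, 1.40 and 1.55 on the 3 days and Kifc2 by -0.97, -0.52 and -0.50, both called on each day. Kif5a was called lower at days 11 and 27 (-0.79 and -0.66) and not at day 18 (0.07), and Kif1a higher at days 18 and 27 (0.73 and 0.57) and not at day 11 (0.07). Under the other scaling the share of higher among all called genes was 47.8%, 37.3% and 43.8% on the 3 days. It was 70.8%, 51.5% and 70.9% before. Transport kinesins were then 2 higher and 7 lower at day 11, where 3690 of the 19507 genes were higher and 4033 lower. At day 27 they were 2 higher and 5 lower, where 3844 genes were higher and 4923 lower.

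The second question was how kinesins in the precipitates changed with time after the start of treatment. The age of the tagged cells and of their progeny was not measured. At day 27 against day 11 in IP, 7 of 12 mitotic kinesins tested fell and 0 rose, where 3.88% of all 17282 genes fell and 11.4% rose. All 12 estimates were negative, with a median log2 difference of -0.68, against 0.15 over all genes tested. Transport kinesins had 2 members higher and 0 lower of 15, cilia kinesins 0 in either direction, and of dynamics kinesins Kif26b rose and Kif21b fell. The summed mitotic class averaged 130 ± 18.7, 98.6 ± 19.2 and 73.1 ± 4.18 TPM on days 11, 18 and 27 (SD, n = 4 each). The summed transport class averaged 2167 ± 169, 2433 ± 226 and 2343 ± 215 TPM on the same days, so that the mitotic share of kinesin TPM was 4.48%, 3.10% and 2.49%. The other scaling lowered the median over all genes by 0.13. The share of higher among all called genes was then 46.1% in place of 74.6%. Under that scaling 9 mitotic kinesins fell and 0 transport kinesins were called, where 1503 of the 17282 genes fell and 1285 rose.

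Kif11 had 9.87 and 9.84 TPM in running and 9.6 and 9.71 TPM in sedentary mice at day 27, against 21.7 and 25.9 TPM in running and 21.9 and 20.2 TPM in sedentary mice at day 11. No day 27 library reached the lowest of day 11, and the difference was -1.12 ± 0.18 (limma, adjusted p = 0.00096). Kif15 averaged 5.02 ± 0.993 TPM on day 27, against 11.8 ± 1.02 TPM on day 11 (SD, n = 4 each) and fell by 1.10 (limma, adjusted p = 0.00147). Kif23 averaged 6.01 ± 1.26 TPM on day 27, against 11.9 ± 2.22 TPM on day 11, and fell by 0.89 (limma, adjusted p = 0.00782). Its highest day 27 library, at 7.6 TPM, lay below its lowest of day 11, at 9.19 TPM. Kif20b averaged 4.62 ± 0.903 TPM on day 27, against 8.77 ± 0.784 TPM on day 11, and fell by 0.81 (limma, adjusted p = 0.0115). Kif4, Kif2c and Kifc1 also fell, by 0.85, 0.71 and 0.64. Kif20a averaged 10.8 ± 2.29 TPM on day 27, against 16.4 ± 3.26 TPM on day 11, and its difference of -0.56 did not pass (limma, adjusted p = 0.0602); under the other scaling it did (adjusted p = 0.0271).

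These calls depended on single libraries of days 11 and 27. Without the sedentary IP library labelled a at day 11, or without both IP libraries labelled a at day 11, 2 mitotic kinesins still fell, and without the sedentary IP library labelled f at day 27, 4 did. Without both libraries labelled a, Kif11 (-1.15, adjusted p = 0.0221, limma) and Kif15 (-1.01, adjusted p = 0.0365, limma) were the mitotic members that remained.

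The members that rose with time were motors of neurons and Kif26b. Kif26b averaged 78.3 ± 14.3 TPM on day 27, against 51.5 ± 6.10 TPM on day 11, and rose by 0.58 ± 0.11 (limma, adjusted p = 0.00322), with every day 27 library above every day 11 library. Kifc2 averaged 121 ± 9.82 TPM on day 27, against 87.6 ± 14.96 TPM on day 11, and rose by 0.47 (limma, adjusted p = 0.00699). Kif17 averaged 19.2 ± 1.27 TPM on day 27, against 13.4 ± 0.736 TPM on day 11, and rose by 0.49 (limma, adjusted p = 0.0301). The calls of Kifc2 and Kif17 were lost under the other scaling (adjusted p = 0.0583 and 0.0773, limma), that of Kif26b was kept (adjusted p = 0.00776, limma). The call of Kif17 was also lost without any 1 of 6 IP libraries of days 11 and 27 (running a and sedentary a and b of day 11, sedentary e and running and sedentary f of day 27). Kif3c (0.35, adjusted p = 0.0675, limma) and Kif1a (0.32, adjusted p = 0.0858, limma) did not pass, and Kif5a and Kif5c differed by -0.11 and 0.11. Kif21b averaged 66.8 ± 10.1 TPM on day 27, against 97.4 ± 20.5 TPM on day 11, and fell by 0.53 (limma, adjusted p = 0.037); at day 18 it averaged 108 ± 44.2 TPM. The call of Kif21b was lost without both IP libraries labelled a at day 11, and without any 1 of the IP libraries sedentary a of day 11 and sedentary e, running f and sedentary f of day 27.

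**Figure D4:**
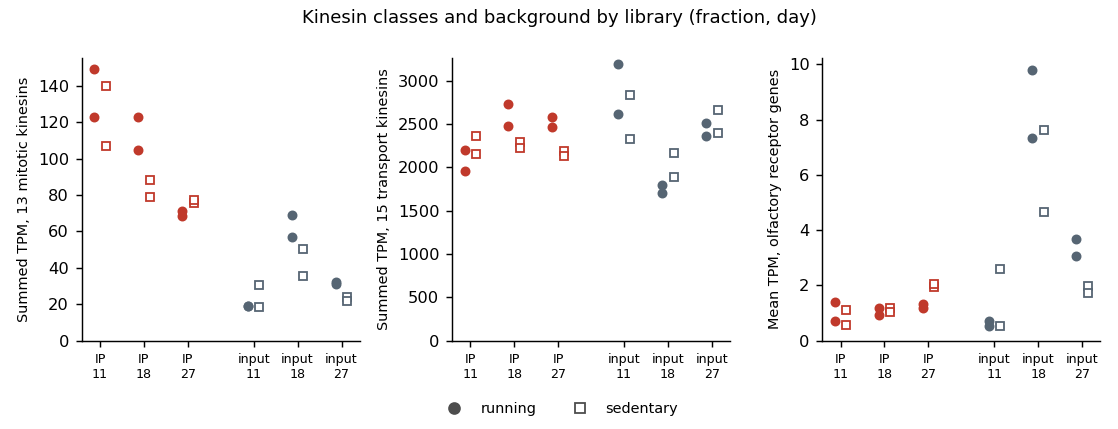
Summed TPM of the mitotic and transport classes and mean TPM of 1102 olfactory receptor genes, by library and day, for IP and input. Filled circles are running and open squares sedentary libraries. The mitotic sum in IP averages 130, 98.6 and 73.1 TPM on days 11, 18 and 27, and in input it is highest at day 18 (53.0 TPM), where olfactory receptors are also highest.

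The intermediate day gave fewer calls. At day 18 against day 11 in IP, 1 mitotic kinesin fell, Kif11 (-0.64, adjusted p = 0.0452, limma), and 2 members rose, Kif26b (0.54, adjusted p = 0.0135, limma) and Kif17 (0.54, adjusted p = 0.037, limma), where 1.1% of all genes fell and 4.56% rose. Under the other scaling 464 of the 17282 genes rose and 448 fell. The share of higher among all called genes was then 50.9% in place of 80.6%. The call of Kif11 was lost without any 1 of 8 IP libraries, those of running mice labelled a, c and d and of sedentary mice labelled a, b, d, e and f. Kif11 averaged 14.4 ± 4.11 TPM at day 18, between its levels of days 11 and 27. At day 27 against day 18 in IP, limma called 0 members in either direction, where 0.0694% of all genes rose and 0.0521% fell; 9 members had an unadjusted p under 0.05.

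Other genes of cell division and of neuronal maturation moved in the IP in the same period. At day 27 against day 11 in IP, 3.88% of all genes tested fell and 11.4% rose. Of 24 partners of mitotic kinesins in the spindle and in cytokinesis, 17 fell and 0 rose (median -0.77). They include Tpx2, which activates Aurora A on the spindle (-1.35), Nuf2 of the kinetochore (-1.58) and the kinetochore kinesin Cenpe (-1.15), whose symbol lies outside the rule. Kifc5b, the near-identical copy of Kifc1, also lies outside the rule and was counted among the 24, but was not called (0.0086). Among markers of dividing cells 5 of 8 fell, such as Top2a (-1.29), and Tyms rose (0.79); among progenitor and immature neuron markers 4 of 8 fell; among mature granule neuron markers 5 of 8 rose. The summed dividing cell markers, Tyms included, averaged 1082 ± 222 TPM on day 27, against 829 ± 189 TPM on day 11. The summed progenitor and immature neuron markers averaged 937 ± 215 TPM on day 27, against 1472 ± 314 TPM on day 11, and mature granule neuron markers 1930 ± 254 TPM on day 27, against 1548 ± 32.0 TPM on day 11 (SD, n = 4 each). Their part in the kinesin differences was not tested.

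The same partners stood with the mitotic kinesins in IP against input, where 20 of 24 were higher and 1 lower (median 1.40). Of all genes tested 41.4% were higher and 28.5% lower. Racgap1, which forms centralspindlin with Kif23, averaged 25.7 ± 8.77 TPM in IP and 6.29 ± 2.68 TPM in input, and Prc1, which recruits Kif4 to the midzone, 28.1 ± 7.32 TPM in IP and 6.28 ± 2.74 TPM in input (SD, n = 12 each). Their log2 differences of 1.88 and 2.03 were called, while the citron kinase Cit was lower (-0.44). Top2a averaged 54.3 ± 23.2 TPM in IP and 3.15 ± 0.881 TPM in input. Over the 12 IP libraries, on the log2 scale, the 66 pairs of 12 mitotic kinesins correlated with a median r of 0.69 (0.19 to 0.94), and these kinesins correlated with Top2a with a median r of 0.85. The 105 pairs of transport kinesins had a median r of 0.34 (-0.56 to 0.92), and their median r with Top2a was -0.14. In input the classes lay closer, with a median r of 0.74 among mitotic and 0.58 among transport kinesins. With Top2a it was 0.49 and -0.39 there. These libraries share days and scaling, so the values of r are a description.

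In the whole dentate gyrus day 18 stood apart from both other days. At day 18 against day 11 in input, 12 kinesins rose, where 37.8% of all 20462 genes rose, and 9 fell, where 11.4% of all genes fell. The 12 comprised 9 mitotic kinesins, 2 of cilia (Kif9 and Kif24) and Kif26a; the 9 comprised 7 transport kinesins, Kif21a and Kif21b. Medians were 0.91 for the mitotic and -0.26 for the transport class, against 0.23 over all genes tested. The other scaling lowered the median over all genes by 0.13. The share of higher among all called genes was then 63.5% in place of 76.8%. The mitotic count was 8 higher and the transport count 10 lower, where 7227 of the 20462 genes rose and 4154 fell. Kif11 averaged 4.77 TPM at day 18 and 2.54 TPM at day 11, and rose by 0.70, and Kif20b 5.61 TPM at day 18 and 2.14 TPM at day 11, and rose by 1.04. Kif5a averaged 395 ± 48.6 TPM at day 18 and 681 ± 151 TPM at day 11 and fell by 0.77; Kif5b, Kif3a and Kif5c fell by 0.73, 0.69 and 0.58.

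The mitotic sum in input averaged 21.7 ± 5.79, 53.0 ± 14.0 and 27.3 ± 5.13 TPM on days 11, 18 and 27, and the transport sum 2745 ± 364, 1890 ± 201 and 2484 ± 134 TPM (SD, n = 4 each). The olfactory receptor mean moved with the mitotic sum, at 1.09, 7.36 and 2.61 TPM on the same days. Markers moved too at day 18 against day 11, where 37.8% of all genes rose and 11.4% fell. Of 8 dividing cell markers 5 rose, with a sum of 2567 TPM at day 18 and 435 TPM at day 11 that was mostly Tyms. Of 7 ependymal and choroid plexus markers 4 rose. The sums of that list ran from 42.1 to 584 TPM at day 18 and from 32.0 to 230 TPM at day 11. Of the mature granule neuron markers 4 fell. The part of these markers in the kinesin differences was not tested, and the 4 input libraries of day 18 cannot be told apart from the day itself. In input limma called 0 members at day 27 against day 11, where 0% of all genes were called, and 1 member had an unadjusted p under 0.05. In input 12 members were called at day 27 against day 18, where 37.1% of all genes were called. Of all 20462 genes 2134 rose and 5458 fell. Of the 12 members 5 rose (Kif5b, Kif21a, Kif3a, Kif5a and Kif5c, by 0.46 to 0.76). The 7 that fell were Kif2b, Kif18b (by 1.31), Kif14 (by 1.05), Kif4 (by 0.92), Kif9 (by 0.79), Kif20b (by 0.74) and Kif11 (by 0.62). Fewer were called in this last comparison without certain single input libraries: 1 without sedentary c of day 18, 5 without running c of day 18, 6 and 5 without running e and f of day 27, and 3 without sedentary f of day 27. At day 18 against day 11, 5 mitotic kinesins rose without sedentary c of day 18.

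Whether the distance between IP and input itself changed was tested in 1 fit of all libraries. Over the 3 days, 25 of 39 members differed (10 mitotic, 11 transport, 1 of cilia and 3 of dynamics), where 37.4% of all genes did, but without the day 18 libraries 2 members did. For day 27 minus day 11, a contrast that does not use day 18, 3 mitotic kinesins had a smaller difference at day 27, where 0.323% of all genes had a smaller one, and 1 member, Kif26b, a larger one (0.61, adjusted p = 0.0411, limma), where 1.46% of all genes had a larger one. The 3 were Kif15 (-1.26, adjusted p = 0.0132), Kif11 (-1.19, adjusted p = 0.0249) and Kif20b (-1.11, adjusted p = 0.0342), all from limma. The median over the mitotic class was -0.91 and over the transport class 0.23, against -0.01 over all genes tested. Under the other scaling the share of larger among all called genes was 71.8% in place of 81.9%. Without both IP libraries labelled a at day 11, 0 members were called. The 3 mitotic calls became 1 without any 1 of the IP libraries sedentary a and b of day 11 and running e and sedentary f of day 27, or of the input libraries running a of day 11 and sedentary e of day 27; they became 0 without the input library sedentary f of day 27, and 5 without the input library sedentary a of day 11.

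The third question was whether running changed any kinesin. In IP, over the mean of the 3 days, limma called 0 of 38 members, where 0.00579% of all genes were called; 5 members had an unadjusted p under 0.05, as did 2453 of the 17282 genes. No member was called at day 11 (0% of all genes), day 18 (0%) or day 27 (0.0289%), with 2, 6 and 2 members at an unadjusted p under 0.05, nor did the running effect in IP differ between days for any member (0.00579% of all genes, 4 members at an unadjusted p under 0.05). In input limma called 0 of 39 members over the mean of the 3 days (0% of all genes, 2 members at an unadjusted p under 0.05). There were also 0 calls at day 11 (0%), day 18 (0.00977%) and day 27 (0%), with 0, 3 and 1 members at an unadjusted p under 0.05, and 0 for the difference between days (0%, 1 member). The difference between the running effects of IP and input gave 0 calls among members (0%), with 4 members at an unadjusted p under 0.05. Medians in IP were 0.14 for the mitotic, 0.06 for the transport class and -0.07 for all genes tested.

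**Figure D5:**
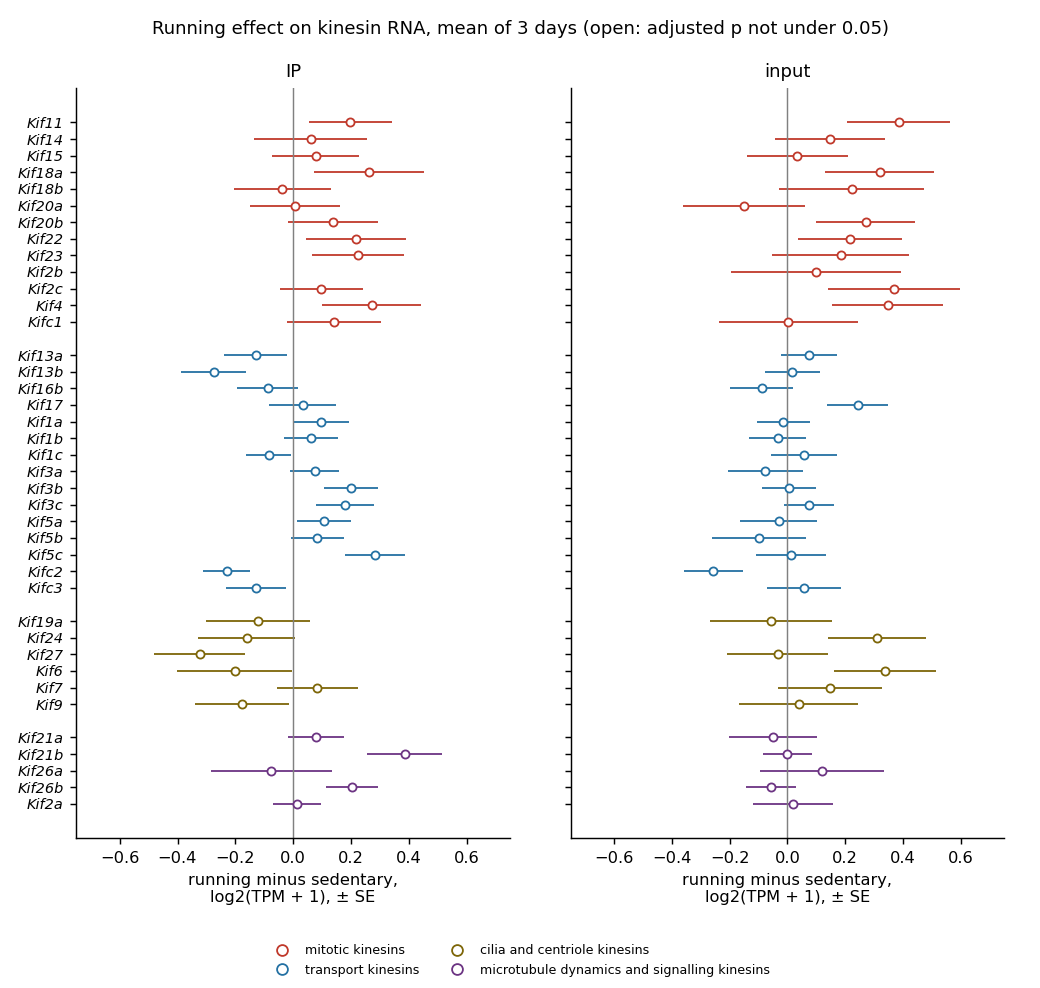
Log2 difference of log2(TPM + 1) between running and sedentary mice for each kinesin tested, by class, with its standard error, in IP and in input over the mean of 3 days. All points miss an adjusted p under 0.05; the IP values of Kif21b (0.39), Kif5c (0.28) and Kifc2 (-0.23) lie among the farthest from 0 relative to their error.

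The members nearest to a call in IP were Kif21b, Kif5c and Kif26b on the higher side. Kif21b had 69.6, 95.9 and 169 TPM (lowest, median and highest of 6) in running mice, against 58.4, 75.3 and 120 TPM in sedentary mice, with a difference of 0.39 ± 0.13 (limma, adjusted p = 0.225). Kif5c had 367, 484 and 608 TPM in running mice, against 374, 383 and 461 TPM in sedentary mice (0.28 ± 0.10, adjusted p = 0.259, limma). Kif26b had 42.4, 82.2 and 94.8 TPM in running mice, against 54.5, 63.2 and 70.4 TPM in sedentary mice (0.20 ± 0.09, adjusted p = 0.324, limma). Without the day 18 libraries Kif21b differed by 0.15, Kif5c by 0.18 and Kif26b by 0.11. In all 3 genes the running libraries lay above the sedentary ones at days 18 and 27 and overlapped them or lay below at day 11. At day 18 Kif5c, for instance, had 608 and 497 TPM in running mice, against 389 and 399 TPM in sedentary mice.

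On the lower side were Kifc2, Kif13b and Kif27. Kifc2 had 72.6, 103 and 128 TPM in running mice, against 100, 117 and 129 TPM in sedentary mice (-0.23 ± 0.08, adjusted p = 0.252, limma), and differed in the same direction in input, with 128, 149 and 195 TPM in running mice, against 171, 181 and 195 TPM in sedentary mice (-0.26, adjusted p = 0.953, limma). Kif13b differed by -0.27 ± 0.11 (adjusted p = 0.301, limma) and Kif27 by -0.32 ± 0.16 (adjusted p = 0.367, limma) in IP. In input Kif17 had 17.3, 20.8 and 23.1 TPM in running mice, against 15.7, 17.0 and 19.2 TPM in sedentary mice (0.24, adjusted p = 0.953, limma), and Kif13a, Kif3c, Kif26b and Kif16b differed by 0.08, 0.07, -0.06 and -0.09.

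At day 18 all 12 mitotic kinesins tested in IP had a positive running estimate. Their median was 0.40, against -0.0086 over all genes tested, with 0 called. At day 11 the estimate was positive for 11 of them (median 0.10, against -0.11 over all genes tested). At day 27 it was positive for 6 of them (median -0.09, against -0.08), with 0 called at day 11 or day 27. The 12 correlated with each other over the IP libraries (median r 0.69), so their signs are not 12 separate observations. At day 27 the mitotic sum was 68.4 and 71.0 TPM in running mice, against 75.7 and 77.4 TPM in sedentary mice. Kif23, at day 18, had 12.9 and 8.59 TPM in running mice, against 5.30 and 4.95 TPM in sedentary mice (0.91, adjusted p = 0.431, limma). The mitotic sum over all 12 IP libraries was 68.4, 114 and 149 TPM in running mice, against 75.7, 83.5 and 140 TPM in sedentary mice, with most of that range shared. Progenitor and immature neuron markers summed to 2135 and 1443 TPM in the running IP libraries of day 18, against 1098 and 867 TPM in the sedentary ones. Of their 8 genes 7 had a positive running estimate over the 3 days (median 0.32), while 8 of 8 astrocyte (median -0.32), 8 of 8 oligodendrocyte (median -0.25) and 8 of 8 microglia markers had a negative one, none of them called. Their part in the kinesin values was not tested.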

How the data were processed

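Libraries were made with a stranded total RNA kit (SMARTer Stranded Total RNA-Seq Kit v2), per the labels' protocols. The deposited values are TPM per gene and library; RSEM and build mm10 are named per the submitters' processing notes, while for aligner, versions, annotation and strandedness of the counting the entry is "not given in the sources used here". TPM keeps no depth, so the depth per library is unknown and no counting interval can be given; a gene at an exact 0 is written as listed at 0. All 24 columns were used (0 columns left out). The table holds 4 entries with a repeated name and 27 names turned into dates, none of them a member.

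Exon overlaps with other listed genes (9 members) and promoter windows came from the mouse annotation and from RefSeq. Members, classes and gene lists were chosen with earlier results of these data known; 2 listed adaptor symbols (Kif1bp and Kifbp) had no entry. Values were tested as log2(TPM + 1) with limma 3.58.1 in R 4.3.3 (group means, trended robust eBayes), among genes with a mean of at least 1 TPM over the libraries of a fit. Adjustment was by Benjamini-Hochberg over all genes tested, at 0.05. IP was compared with input in a fit of all 24 libraries (19507 genes, 39 members), and days and running within the 12 IP (17282 genes, 38 members) and the 12 input libraries (20462 genes, 39 members). Tables were handled with pandas 2.3.3 and numpy 2.4.6, and the fits were tested on simulated data. The members given with library values were, per class, the 4 of lowest p for IP against input, the 4 per direction for day 27 against day 11 in IP and the 3 per direction for running, each with a mean of at least 5 TPM; Kif11, Kif20a, Kif23, Kif1a, Kif5a and Kif5c were always given, and others were named after their values were seen. Alternatives were a pseudocount of 0.1, no filter, scaling by the median of ratios, the letter of a library as a replicate block, fits without the day 18 libraries, and each library left out; leaving out both day 11 IP libraries labelled a, and the contrast of day 27 minus day 11 for IP against input, were added after the data were seen.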

Additional observations from a re-analysis of the deposited data

Results flagged for a closer look

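The distance between IP and input differed between the 3 days for 25 members, by limma's F test of the difference itself with adjustment over all 19507 genes. Among mitotic kinesins the adjusted p was 0.00147 for Kif20b, 0.00222 for Kif11, 0.00228 for Kif15, 0.00239 for Kif14, 0.00425 for Kif2b, 0.00463 for Kif18b, 0.00475 for Kif23, 0.00549 for Kif4, 0.00931 for Kif2c and 0.0244 for Kif18a. In 9 of these 10, all but Kif2b, the distance was wider at day 11 than at day 18. Among transport kinesins it was 0.00364 for Kif3a, 0.00469 for Kif5a, 0.00584 for Kif1c, 0.0074 for Kif1a, 0.0103 for Kif5c, 0.012 for Kif3c, 0.0289 for Kif5b, 0.0308 for Kifc2, 0.0341 for Kif1b, 0.0399 for Kif3b and 0.0468 for Kifc3. In these 11 the estimate of IP against input was higher at day 18 than at day 11. The remaining members were Kif26b (0.00397), Kif21a (0.00424), Kif21b (0.022) and Kif9 (0.046). Without the day 18 libraries 2 members differed; the input libraries of day 18 are those with an olfactory receptor mean of 4.67 to 9.78 TPM, whose part was not tested.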

How the results depend on the processing

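Depth is unknown for TPM, and each group holds 2 libraries, which limits how small a difference could be called. Scaling by the median of ratios changed counts of IP against input, to 5430 higher and 8026 lower of all 19507 genes over all days. Over all days it gave 5 higher and 6 lower transport kinesins, and 5 higher and 1 lower member of the cilia and dynamics classes. At day 11 it gave 2 higher and 7 lower transport kinesins, and at day 27 1 lower mitotic kinesin and 2 higher and 5 lower transport kinesins. It also left 0 higher transport kinesins at day 18 and at day 27 against day 11 in IP, and turned Kif27 (IP against input, -0.0431) and Kif5c (day 27 against day 11 in IP, -0.0368). Without the day 18 libraries 5 transport kinesins were higher in IP, the distance between IP and input differed between days for 2 members, and Kif2a (IP against input, 0.0002) and Kif26b (running in input, 0.0443) changed sign. Without the filter 0 mitotic kinesins fell and 0 transport kinesins rose at day 18 against day 11 in IP. In each case the cause was not tested, except that fewer libraries entered the fit.

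Without both day 11 IP libraries labelled a, the counts at day 18 against day 11 in IP were 0 lower mitotic, 0 higher transport and 0 higher other kinesins, and at day 27 against day 11 2 lower mitotic, 0 higher transport and 0 lower other kinesins. For IP against input, day 27 minus day 11, they were 0 mitotic and 0 other kinesins. With the library letter as a replicate block that contrast also gave 0 lower mitotic and 0 higher other kinesins. Deviations of IP and input libraries of the same activity and letter correlated between -0.278 and -0.00829. Those of running and sedentary libraries of the same letter correlated between 0.0484 and 0.268, highest at day 11 (0.197 in IP and 0.268 in input). On these values the letters were not taken as a pairing. The block could not be fitted for differences between days within a fraction, because letters are nested in days.

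Leaving out each library in turn gave these ranges of counts. Against input, mitotic kinesins lower in IP numbered 0 to 1 at day 11 and 0 to 1 at day 27, and transport kinesins higher at day 11 2 to 4. For day 27 minus day 11 of that distance, 0 to 5 mitotic kinesins were lower, 0 to 2 transport kinesins higher and 0 to 1 other kinesins higher. At day 18 against day 11 in IP, 0 to 1 mitotic kinesins were lower, 0 to 4 transport kinesins higher and 0 to 1 other kinesins higher. At day 27 against day 11 in IP, 2 to 8 mitotic kinesins were lower, 1 to 4 transport kinesins higher and 0 to 1 other kinesins lower. In input 5 to 11 mitotic kinesins rose at day 18 against day 11, and 1 to 15 kinesins were called at day 27 against day 18. Kif2a in IP against input ranged from -0.0667 to 0.0374. Running gave 0 called members under every alternative run. Over all alternatives, named members kept direction and call in 960 of their values, lost the call in 21, gained it in 12 and changed sign in 9.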

Other observations

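Of 21 light chains and adaptors of transport kinesins 8 were higher and 5 lower in IP than in input (median -0.08), where 41.4% of all genes were higher and 28.5% lower. Trak2, a mitochondrial adaptor of Kif5 motors, averaged 193 ± 29.9 TPM in IP and 89.3 ± 12.0 TPM in input (1.10), and Kidins220, a Kif5 cargo, 292 ± 34.2 TPM in IP and 184 ± 21.4 TPM in input (0.66; SD, n = 12 each). Lower in IP were the lysosomal adaptor Arl8b (97.8 ± 16.3 TPM in IP and 173 ± 29.0 TPM in input, -0.82) and the light chain Klc2 (52.7 ± 10.1 TPM in IP and 86.0 ± 15.6 TPM in input, -0.70). Under scaling by the median of ratios 6 of the list were higher and 12 lower, where 5430 of the 19507 genes were higher and 8026 lower. At day 27 against day 11 in IP 7 of the 21 rose and 0 fell, where 11.4% of all genes rose and 3.88% fell. Among the 7 were Sybu, the adaptor syntabulin (127 TPM at day 27 and 83.9 TPM at day 11, 0.60), and the Jip scaffolds Mapk8ip2 (0.54) and Mapk8ip3 (0.46). With the other scaling 4 rose, where 1285 of the 17282 genes rose, and without both day 11 IP libraries labelled a 4 did.

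Of 25 subunits and regulators of dynein and dynactin, the motor that moves to minus ends, 8 were higher and 11 lower in IP than in input (median -0.03), beside the same shares of all genes. The heavy chain Dync1h1 averaged 231 ± 26.6 TPM in IP and 118 ± 14.6 TPM in input (0.96), and the cargo adaptor Hook1 100 ± 11.3 TPM in IP and 54.5 ± 9.50 TPM in input (0.88). Light chains lay on the other side, with Dynlt3 at 49.99 ± 7.76 TPM in IP and 153 ± 35.0 TPM in input (-1.57) and Dynll2 at 115 ± 15.3 TPM in IP and 217 ± 25.8 TPM in input (-0.91). At day 27 against day 11 in IP the intermediate chain Dync1i1 rose (85.9 TPM at day 27 and 49.4 TPM at day 11, 0.76), as did Dctn1 (0.47) and Actr1b (0.41), while Nde1, which also acts at the spindle, fell by 0.45. All of these calls come from limma at an adjusted p under 0.05.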
